A study of Homo sapiens with 24 samples.

Results

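The genes described here are 46 genes of the lysosome: its acid hydrolases, the activators and cofactors of those enzymes, 5 proteins of its membrane, the 2 receptors that sort enzymes to it, and TFEB, a transcription factor of lysosomal genes. They were chosen by name for their known function and not by a measured value, although earlier results of these data were known by then. Each matched exactly 1 of the 43037 genes in the table. A total of 45 of the 46 passed the filter on low values (5 CPM or more in 1 or more libraries, CPM being tags scaled to a common library total) and were tested among 12327 genes. The gene that did not pass was GLB1, the acid beta-galactosidase, which never exceeded 3.08 CPM.

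Transcription start sites were counted by CAGE-Seq, a method that sequences a tag from the capped 5′ end of each transcript, in 4 human glioblastoma cell lines, DBTRG-05MG, U251MG, T98G and U87MG. Each line had a control variant (“Vec”), stably transduced with a Puro-Blank Lentivirus, and a variant (“WWOX”) stably transduced with a lentiviral construct for overexpression of WWOX, a gene whose product is a WW domain oxidoreductase. The WWOX construct carries a CMV promoter, GFP and puromycin resistance, and puromycin selection followed transduction, so every comparison is between transduced and selected cells. The sources describe the puromycin step as a selection of clones and do not say how many clones make up a variant. The growth medium was MEM for T98G, EMEM for both U87MG and U251MG, and RPMI for DBTRG-05MG. Each of the 8 groups held 3 libraries that the series' design text calls biological replicates, 24 in all. A transcript gives 1 tag whatever its length, so CPM needs no correction for length, but levels of different genes can be compared only with a limit. The V-ATPase subunits ATP6V0C and ATP6V1A, which every cell is known to need, had group means of 0.116 to 1.68 CPM, whereas ATP6V0B had 387 to 978 CPM, so a low CPM was not read as a low transcript level. These are bulk samples, in which fewer cells of a kind and less RNA per cell cannot be told apart.

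Lysosomes are acidic organelles in which proteins, glycans and lipids are broken down. Most of the enzymes are made in the endoplasmic reticulum, tagged with mannose phosphate in the Golgi apparatus and carried onward by mannose phosphate receptors, and highly glycosylated membrane proteins line the organelle from inside. TFEB and its relatives bind an E-box motif, part of the CLEAR element, near the starts of many of these genes, and lysosomal cathepsins are known for roles in the invasion of glioma cells.

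The libraries held between 10756072 and 16953689 tags, so that 3 tags, used as the floor of detection, amounted to 0.177 to 0.279 CPM. WWOX itself was measured at 33.9 to 40.1 CPM in U87MG “Vec” and 61.0 to 66.0 CPM in U87MG “WWOX”, at 34.2 to 57.2 and 45.1 to 61.8 CPM in T98G, at 31.4 to 36.8 and 17.4 to 56.7 CPM in U251MG, and at 20.4 to 22.2 and 27.96 to 31.97 CPM in DBTRG-05MG. The groups did not overlap in U87MG and DBTRG-05MG, and the difference passed the limma test (Benjamini-Hochberg adjusted p over all genes) in none of the 4 lines, with adjusted p of 0.137, 0.553, 1 and 0.770 in the same order. The 17.4 CPM belonged to the library labelled U251MG “WWOX” replicate 2, below all 3 control libraries of that line. This is not the direction its label would give, and whether the label holds was not tested. That library also had the largest typical deviation from its group, a median of 0.727 on the log2 scale over all genes. How tags from the construct were assigned is not given in the sources used here. The paper reports that a Western blot of extracted protein established the efficiency of transduction. The CPM given here count tags and are no test of overexpression of the protein. GFAP, the glial intermediate filament, averaged 2655 CPM in U251MG “Vec” and 1.99 to 4.34 CPM in the other 3 controls, and of the other 6 glial and glioma markers SOX2, NES and S100B averaged 98.1, 93.97 and 254 CPM in U251MG “Vec” and 47.0, 38.9 and 8.88 CPM in DBTRG-05MG “Vec”, but at most 1.93 CPM in the controls of U87MG and T98G. VIM averaged 14.9 to 56.4 CPM in the 4 controls, and OLIG2 and AQP4 at most 1.79 CPM. Of 8 macrophage and microglia markers, PTPRC, AIF1 and TYROBP did not exceed 3 tags in any library, whereas CD74 averaged 189 CPM and CSF1R 10.2 CPM in U87MG “Vec”. CD68, CD14 and ITGAM averaged at most 0.611 CPM in any group.

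The lysosomal genes had higher CPM than most, within the limit on levels between genes given above. Their mean CPM over the 8 groups had a median of 67.3 CPM, against 18.5 CPM for all genes tested, and 35 of the 46 lay above the latter. The highest level was that of CD63, a tetraspanin of late endosomes and exosomes, at 3349 CPM, which was 34.5% of the summed level of the 46 genes. PSAP, the precursor of the saposins that assist sphingolipid breakdown, followed at 1750 CPM, and CTSB, the cysteine protease cathepsin B, at 790 CPM. Over the 24 libraries CD63 ran from 1294 to 5943 CPM, PSAP from 504 to 4704 CPM and CTSB from 415 to 1169 CPM. At the other end were GLB1 at 1.57 CPM (0.284 to 3.08 CPM over the libraries), GALC, the galactosylceramidase deficient in Krabbe disease, at 1.68 CPM, and TFEB at 5.28 CPM. In total 15 genes exceeded 100 CPM and 7 stayed under 10 CPM.

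**Figure D1:**
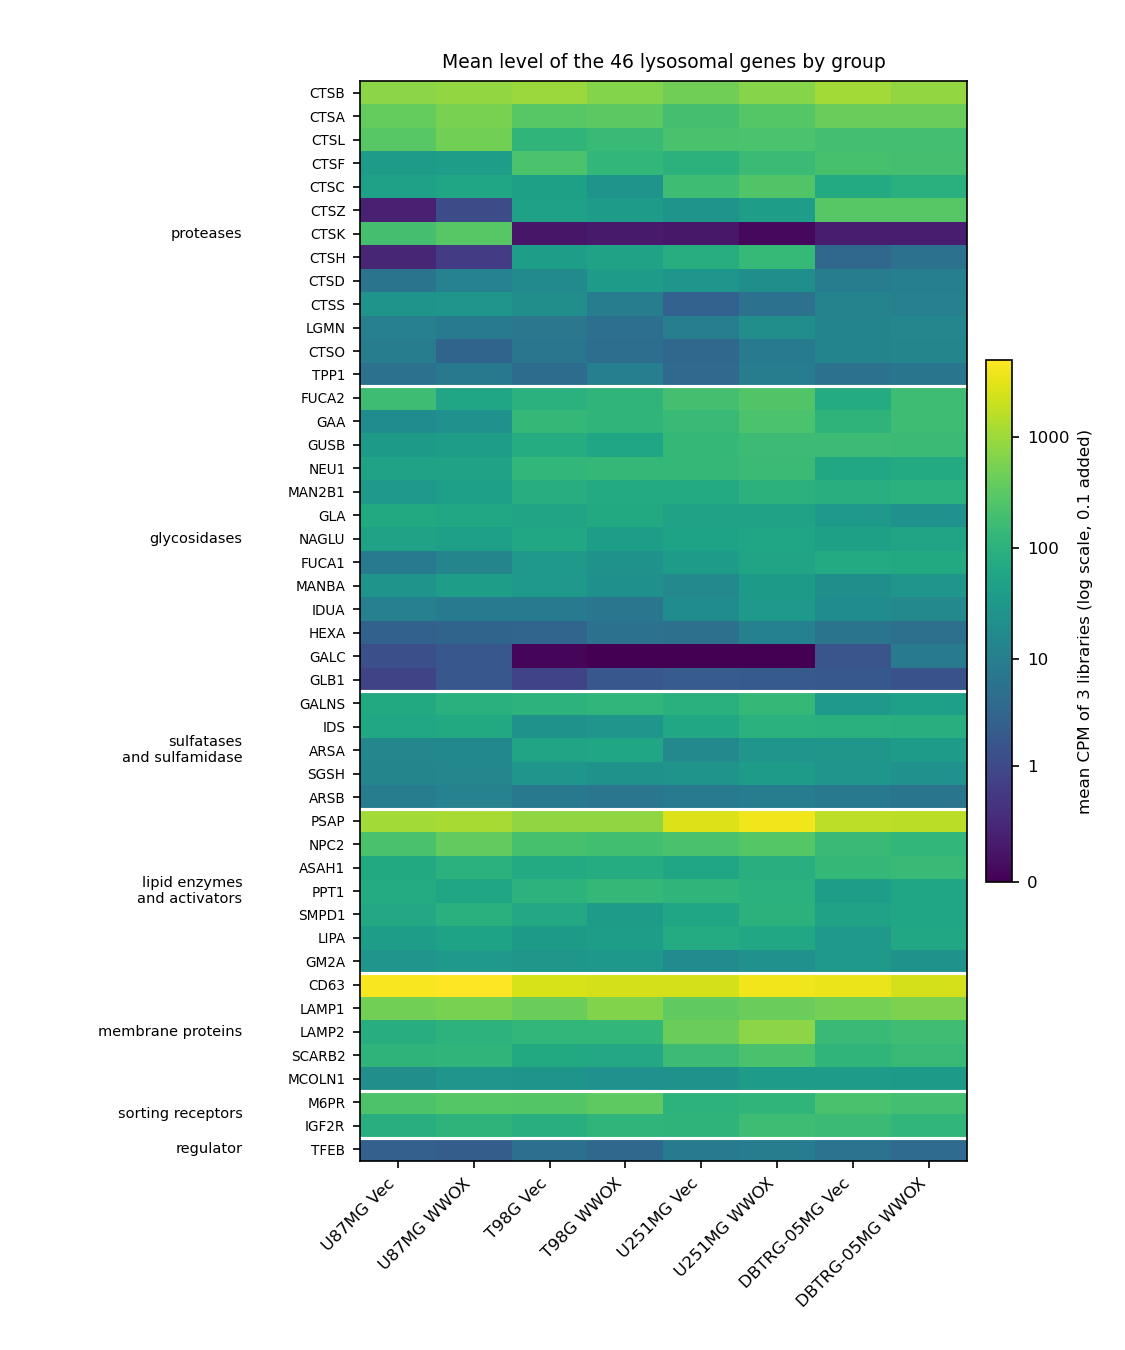
Each row is one of the 46 lysosomal genes, grouped by role, each column one of the 8 groups, and the colour is the mean CPM of 3 libraries on a log scale after adding 0.1. CD63 and PSAP are bright in every column, whereas CTSK is bright in the U87MG columns alone and CTSZ and CTSH are dark there.

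RefSeq promoter windows (build GRCh38.p14, from 250 bases before the start to 50 after it) were matched for 33 of the 46 genes. The E-box CACGTG, searched on both strands, was present for 12 of the 33 (36.4%), against 8.77% of 27305 genes with a window. The longer TCACGTGA, the core of the CLEAR element that holds the E-box within it, was present for 6 of the 33 (18.2%), against 1.18% of all. These 6 genes code for a protective protein of lysosomal glycosidases (CTSA), acid alpha-glucosidase (GAA), a sulfatase of keratan sulfate (GALNS), the large mannose phosphate receptor (IGF2R), the main membrane glycoprotein (LAMP1) and a calcium channel (MCOLN1). One stretch for each is shown because the motif is what they share, with its 8 bases in capitals and every stretch written on the gene's own strand and ending upstream of the start.
CTSA, chr20:45891283-45891334, plus strand: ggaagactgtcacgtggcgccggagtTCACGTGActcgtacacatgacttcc
GAA, chr17:80101478-80101537, plus strand: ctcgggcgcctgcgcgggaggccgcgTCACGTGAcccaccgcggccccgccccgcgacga
GALNS, chr16:88857089-88857148, minus strand: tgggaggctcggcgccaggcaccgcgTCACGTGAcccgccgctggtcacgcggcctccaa
IGF2R, chr6:159969027-159969081, plus strand: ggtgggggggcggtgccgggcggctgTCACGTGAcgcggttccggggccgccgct
LAMP1, chr13:113297184-113297238, plus strand: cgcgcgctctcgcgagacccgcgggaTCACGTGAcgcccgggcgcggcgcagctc
MCOLN1, chr19:7522583-7522623, plus strand: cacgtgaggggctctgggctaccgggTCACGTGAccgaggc
A match is a description of these letters, and binding was not measured. None of these 6 genes, the sequences of which stand above, passed the test of “WWOX” against “Vec” in any line.

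The question of the series was what WWOX overexpression changes in each line. Few of the lysosomal genes passed the test, and few of all genes did. With 3 libraries against 3, not passing is not absence of change. FUCA2, which codes for a secreted alpha-L-fucosidase, fell in U87MG and rose in DBTRG-05MG, CTSO, the cysteine protease cathepsin O, fell in U87MG, and GALC rose in DBTRG-05MG. In U87MG 2 of the 45 genes tested passed (4.44%), against 3.2% of all genes. In T98G 0 of 45 passed (1.14% of all genes), and in U251MG 0 of 45 (0.316% of all genes). An unadjusted p under 0.05 was found for 6 genes in each of these 2 lines, and edgeR, limma-voom and DESeq2 called 0 in T98G and, in U251MG, 0, 0 and 1. These all-gene shares rest on single libraries: without the library labelled U251MG “WWOX” replicate 2 the calls over all genes in U251MG went from 39 to 557, and without T98G “Vec” replicate 2 those in T98G went from 140 to 394, with 1 and 0 of the lysosomal genes among them. In DBTRG-05MG 2 of 45 passed (4.44%), against 1.02% of all genes. Of these, GALC passed the filter on low values only through DBTRG-05MG “WWOX”, the group where it is high. Where a mean of at least 5 CPM was required, which drops GALC, the count was 1, so this share was not read as an excess. The test was limma on log2(CPM + 0.5) after trimmed mean of M-values scaling, in 1 fit of the 8 groups, at a Benjamini-Hochberg adjusted p under 0.05.

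FUCA2 (ENSG00000001036.14, chr6:143494812-143511720, minus strand) was measured at 164, 155 and 191 CPM in the 3 U87MG “Vec” libraries and at 46.1, 49.7 and 82.6 CPM in the 3 “WWOX” libraries. All 3 WWOX libraries lay below all 3 controls, and the log2FC was −1.62 (SE 0.213, adjusted p = 2.27e-05). In DBTRG-05MG the same gene was at 75.2, 78.0 and 72.9 CPM in “Vec” and at 186, 149 and 168 CPM in “WWOX”. Here every WWOX library was the higher, with a log2FC of 1.08 (SE 0.213, adjusted p = 0.00813). It was at 110, 101 and 87.9 CPM against 107, 113 and 127 CPM in T98G (log2FC 0.22, adjusted p = 0.759). In U251MG it was at 202, 225 and 188 CPM against 271, 164 and 354 CPM (log2FC 0.28, adjusted p = 0.672), and the 164 CPM again came from the library labelled replicate 2. The CPM ranges overlapped in both lines, although in U251MG the libraries were apart after scaling. The F-test of the WWOX effect between the 4 lines gave FUCA2 an adjusted p of 2.11e-05. The call in DBTRG-05MG was lost without “Vec” replicate 3 (adjusted p = 0.0609), “WWOX” replicate 1 (0.0508) or “WWOX” replicate 3 (0.0602), and those of both lines with a separate model for each line (0.0541 in DBTRG-05MG and 0.0544 in U87MG).

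The related FUCA1, the lysosomal alpha-L-fucosidase itself, did not pass in any line. Its estimates were 0.66 for U87MG, 0.52 for U251MG, −0.35 for T98G and −0.02 for DBTRG-05MG, so in U87MG the pair had estimates of opposite sign. No exon of FUCA2 shares bases with another gene of its strand in the GENCODE annotation. The 150 bases upstream of its RefSeq start hold no CACGTG, nor does the rest of the window, and other forms of the E-box were not searched. They are shown because FUCA2 was the one of the 45 genes that passed in both a falling and a rising direction, and no base is in capitals since neither motif was found.
FUCA2, chr6:143511721-143511870, minus strand: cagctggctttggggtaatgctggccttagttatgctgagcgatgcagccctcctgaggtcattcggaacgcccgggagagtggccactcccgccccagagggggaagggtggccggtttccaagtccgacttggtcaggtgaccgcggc

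GALC (ENSG00000054983.17, chr14:87837820-87993665, minus strand) was at 1.57, 1.42 and 1.84 CPM in the DBTRG-05MG “Vec” libraries (24, 22 and 28 tags) and at 7.43, 9.91 and 9.05 CPM in the “WWOX” libraries (126, 153 and 132 tags). The groups were far apart, with a log2FC of 2.06 (SE 0.269, adjusted p = 8.23e-05). GALC passed the filter on low values only through this high group, so that its being tested at all depended on the same libraries. In U87MG it was at 1.21, 0.773 and 1.82 CPM against 2.998, 1.56 and 0.678 CPM, which overlapped (log2FC 0.21, adjusted p = 0.956). In T98G 1 tag was found in the 6 libraries together, and in U251MG it was listed at 0 in all 6. GALC was also the single gene of the 45 that passed in the mean of the 4 lines (log2FC 0.55, adjusted p = 0.0335), against 1.78% of all genes. That mean includes T98G and U251MG, where the gene was not detectable at this depth, and the call was lost with edgeR, limma-voom or DESeq2 on the recovered tags (adjusted p between 0.366 and 0.999986), with a replicate block (0.05003) and without any one of 14 libraries. The F-test between lines gave GALC an adjusted p of 0.00233, which was 0.287 with edgeR, 0.0643 with limma-voom and 0.204 with DESeq2.
GALC, chr14:87993183-87993332, minus strand: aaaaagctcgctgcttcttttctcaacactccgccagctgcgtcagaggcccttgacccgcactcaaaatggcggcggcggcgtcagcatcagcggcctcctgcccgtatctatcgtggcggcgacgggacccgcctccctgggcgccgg
The 150 bases above precede the RefSeq start of GALC and are shown as those of the other gene that rose in DBTRG-05MG. They hold no CACGTG either.

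CTSO (ENSG00000256043.5, chr4:155921580-155953912, minus strand) was at 8.17, 11.4 and 8.35 CPM in U87MG “Vec” and at 4.16, 1.76 and 3.56 CPM in U87MG “WWOX”. All 3 WWOX libraries were the lower, and the log2FC was −1.54 (SE 0.364, adjusted p = 0.0160). The call rested on few tags, 26 to 68 in the WWOX libraries, and was lost without “Vec” replicate 2 (adjusted p = 0.106), without “WWOX” replicate 2 (0.130), with CPM as deposited (0.0661) and with a separate model for each line (0.116). In U251MG CTSO was at 3.16, 4.38 and 3.68 CPM against 10.1, 2.72 and 11.2 CPM. Its estimate there was positive (log2FC 0.78, adjusted p = 0.418), with the library labelled replicate 2 below the controls and the other two above. In the F-test between lines CTSO had an adjusted p of 0.0504, and 2 of the 45 genes, FUCA2 and GALC, passed (4.44%), against 3.5% of all genes.

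**Figure D2:**
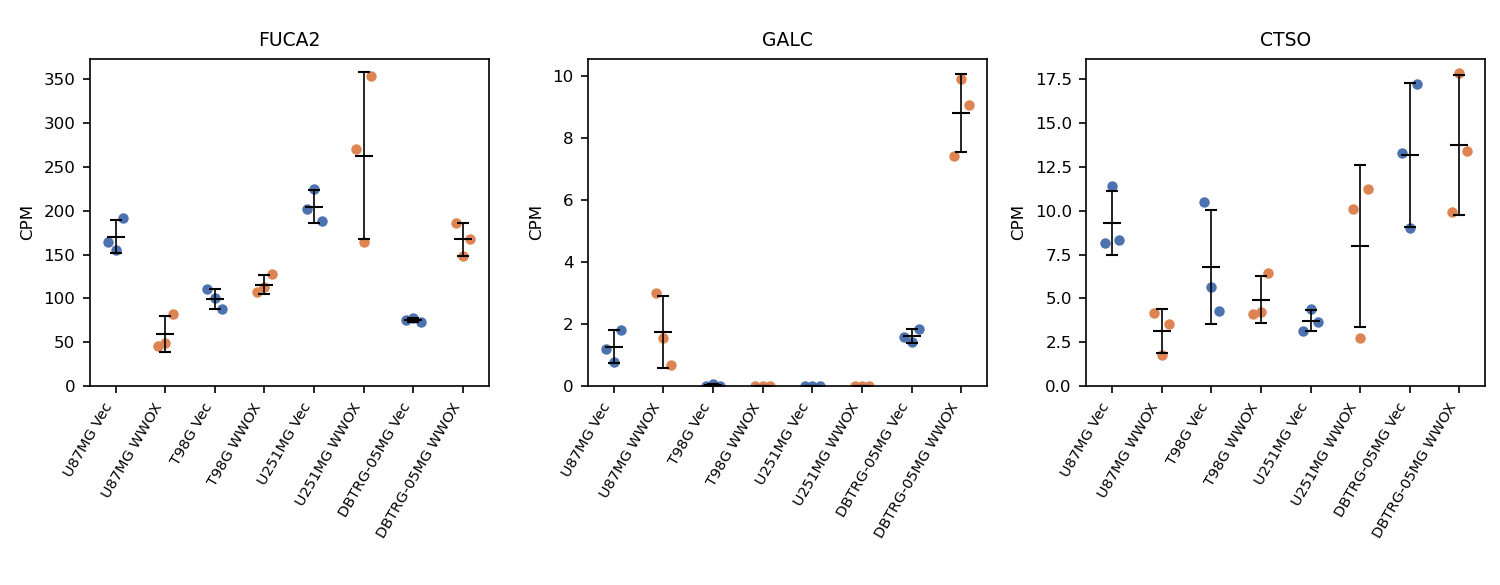
Points give the CPM of FUCA2, GALC and CTSO in each of the 24 libraries by group, with the mean (horizontal bar) and SD (error bar, n = 3), “Vec” in blue and “WWOX” in orange. FUCA2 lies lower in U87MG “WWOX” and higher in DBTRG-05MG “WWOX” than in the control of each line, and GALC reaches 5 CPM in DBTRG-05MG “WWOX” alone.

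**Figure D3:**
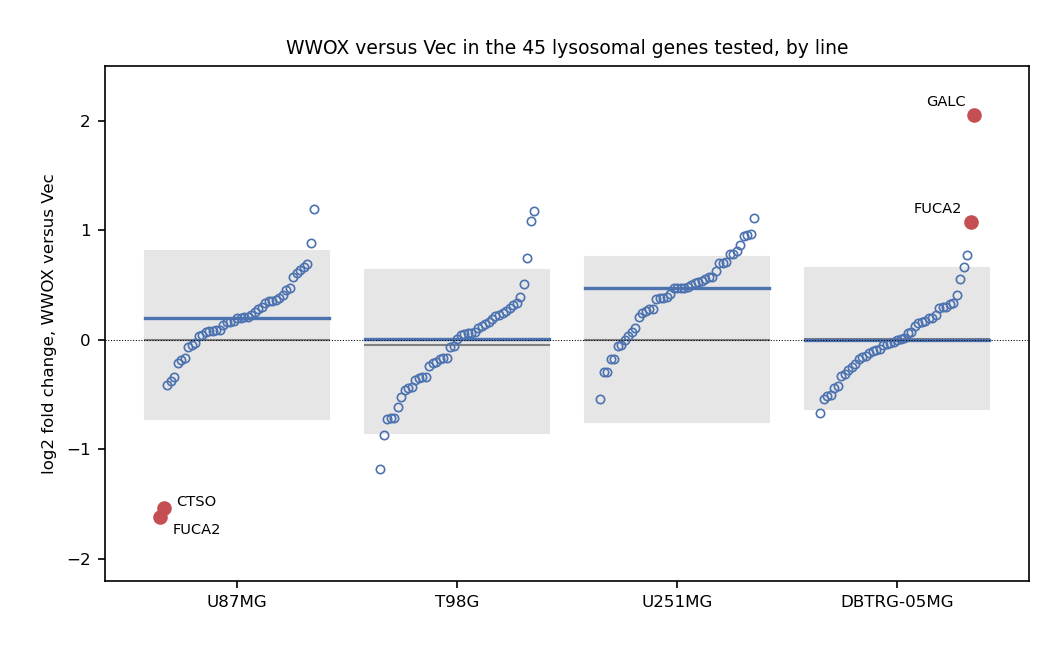
Circles are the log2FC of “WWOX” against “Vec” for the 45 genes tested, sorted within each line, with filled red circles past the adjusted p threshold, a blue line at their median, a grey line at the median of all 12327 genes and a grey box from their 5th to 95th percentile. The blue line is at 0.47 in U251MG and 0.20 in U87MG, and close to 0 in the other 2 lines.

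Among the 13 proteases, no gene other than CTSO passed. Their median log2FC was 0.57 for U251MG, 0.41 for U87MG, −0.00 for DBTRG-05MG and −0.34 for T98G. The smallest adjusted p in T98G was that of CTSS, cathepsin S of antigen presentation, at 27.7, 14.97 and 18.8 CPM in “Vec” and 3.81, 10.8 and 14.4 CPM in “WWOX” (log2FC −1.18, adjusted p = 0.146). The 2 sets of CPM were apart, but overlapped after scaling. CTSZ, the carboxypeptidase cathepsin Z, was at 0.213, 0.232 and 0.0701 CPM in U87MG “Vec”, which is 3 tags or fewer in each library, and at 0.979, 1.43 and 0.762 CPM in “WWOX”, with 9 to 21 tags (log2FC 1.20, adjusted p = 0.167). LGMN, the asparaginyl endopeptidase legumain, was at 10.8, 11.5 and 7.84 CPM in U251MG “Vec” and at 21.6, 13.7 and 27.3 CPM in “WWOX”. The groups did not overlap (log2FC 0.96, adjusted p = 0.119), and LGMN passed in U251MG with DESeq2 and when the library labelled “WWOX” replicate 2 was left out.

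CTSD and TPP1 had the largest positive estimates in T98G, 1.18 (adjusted p = 0.401) and 1.09 (adjusted p = 0.397). CTSD, the aspartic protease cathepsin D, was at 15.4, 12.2 and 21.6 CPM in T98G “Vec” and at 42.6, 24.3 and 47.2 CPM in “WWOX”. TPP1, a tripeptidyl peptidase, was at 3.796, 5.14 and 4.67 CPM against 11.9, 6.23 and 13.7 CPM. In both the WWOX libraries were all higher. CAGE tags fall near the start of a transcript, and at the starts of CTSD, HEXA and GLB1 the GENCODE annotation has an exon of another gene of the same strand. Further into the gene, TPP1, MAN2B1, NAGLU and IDS, like CTSD, share 10% or more of their exon bases with such a gene. How shared tags were counted is not given in the sources used here, so the values of these 7 genes are uncertain.

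The 12 glycosidases tested had median log2FC of 0.38 for U251MG, 0.17 for U87MG, 0.11 for DBTRG-05MG and −0.18 for T98G. MANBA, the beta-mannosidase, had the largest of the 45 estimates in U251MG, with 21.6, 11.3 and 14.7 CPM in “Vec” and 54.9, 22.3 and 31.99 CPM in “WWOX” (log2FC 1.11, adjusted p = 0.163). HEXA, the alpha subunit of beta-hexosaminidase, was at 7.22, 4.22 and 4.22 CPM in U251MG “Vec” against 19.3, 7.87 and 7.24 CPM (log2FC 0.95, adjusted p = 0.174). The libraries of MANBA were apart, whereas those of HEXA overlapped after scaling, and HEXA passed when “WWOX” replicate 3 was left out. None of the 5 sulfatases and sulfamidases (GALNS, ARSA, ARSB, IDS and SGSH), which act on sulfated glycans and lipids, passed in any line, and their median log2FC was 0.48 for U251MG, 0.09 for U87MG, 0.07 for T98G and −0.05 for DBTRG-05MG.

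GALC, which also acts on a lipid and passed in DBTRG-05MG, was counted with the glycosidases. Of the 7 genes grouped as enzymes and activators of lipid breakdown, 0 passed in any line. LIPA, the acid lipase for cholesteryl esters, came closest, with 31.2, 39.7 and 31.0 CPM in DBTRG-05MG “Vec” and 74.97, 61.4 and 48.8 CPM in “WWOX”. The groups were apart (log2FC 0.78), and the adjusted p was 0.230. In DBTRG-05MG the median log2FC of all genes tested was 0.21 on chromosome 10 (LIPA), −0.20 on 12 (CD63) and −0.15 on 8 (CTSB). It was 0.06 on 6 (FUCA2) and 0.07 on 14 (GALC). Other lines had such shifts too, with a median of −0.35 in T98G on 17 (GAA, NAGLU and SGSH) and 0.23 in U251MG on 15 (HEXA and CTSH). The part of such shifts in the estimates of single genes was not tested. PPT1, a palmitoyl thioesterase, was at 70.2, 67.4 and 90.9 CPM in U87MG “Vec” and 65.7, 63.9 and 48.7 CPM in “WWOX”, and at 40.6, 44.9 and 44.5 CPM against 68.3, 59.4 and 53.6 CPM in DBTRG-05MG. Its estimates of −0.42 and 0.41 did not pass (adjusted p = 0.356 and 0.606), nor did the F-test between lines (adjusted p = 0.152).

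None of the 5 membrane proteins, neither of the receptors and not TFEB passed in any line. CD63 was at 3785, 3264 and 3721 CPM in DBTRG-05MG “Vec” and at 1586, 2932 and 2819 CPM in “WWOX”. The WWOX libraries were all lower, but the log2FC of −0.67 did not pass (adjusted p = 0.868). LAMP2, which also serves chaperone-mediated autophagy, was at 431, 489 and 352 CPM in U251MG “Vec” and spread from 211 CPM in the library labelled “WWOX” replicate 2 to 802 and 1195 CPM in the other two (log2FC 0.47, adjusted p = 0.695). IGF2R, whose promoter is among those shown above, was at 101, 74.9 and 92.6 CPM against 128, 112 and 100.02 CPM in U87MG, at 96.1, 99.3 and 67.1 CPM against 110, 95.7 and 138 CPM in T98G, at 120, 128 and 93.8 CPM against 282, 85.7 and 147 CPM in U251MG and at 136, 147 and 185 CPM against 136, 136 and 91.1 CPM in DBTRG-05MG. Its log2FC was 0.28, 0.39, 0.42 and −0.44 in this order, with an adjusted p of 0.396 in the F-test between lines. TFEB had a negative estimate in all 4 lines (−0.19, −0.44, −0.05 and −0.51), and their mean of −0.30 did not pass (adjusted p = 0.450).

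As a group, the lysosomal genes had mostly positive estimates in 2 of the lines. In U251MG 37 of the 45 were positive and 7 negative, GALC being at 0 in both variants, with a median log2FC of 0.47 against 0 for all genes. In U87MG 34 were positive and 11 negative, with a median of 0.20 against −0.00. T98G was split 23 to 22 and DBTRG-05MG 22 to 23, with medians of 0.01 and −0.00. Leaving out 1 library at a time gave a median between 0.13 (without “Vec” replicate 2) and 0.30 (without “Vec” replicate 1) in U87MG and between −0.14 (without “Vec” replicate 2) and 0.21 (without “WWOX” replicate 1) in DBTRG-05MG. Genes are not independent replicates, and these counts are a description. Over the 4 lines 7 genes were positive in each (ARSA, ASAH1, CTSH, GALNS, LAMP1, LAMP2 and TPP1), and 1, TFEB, was negative in each.

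Libraries of 1 group differed among themselves by as much as these medians. Taken as the median over the 45 genes of each library's difference from the mean of its line's controls, the U251MG “WWOX” libraries stood at 0.24, 0.77 and 0.19, and the “Vec” libraries at 0.28, −0.19 and −0.08. The highest was the library labelled replicate 2, and without it the median log2FC in U251MG was 0.23. The U87MG “WWOX” libraries stood at 0.34, 0.26 and 0.16, and the “Vec” libraries at 0.21, −0.03 and −0.21, so that both lines had 1 control within the range of their WWOX libraries. In T98G, “Vec” replicate 2 stood at −0.41 and the other controls at 0.15 and 0.23, and without it the median log2FC turned from 0.01 to −0.23. The glial marker list summed to 3686, 3339 and 2445 CPM in the U251MG “Vec” libraries and to 483, 2855 and 3754 CPM in the “WWOX” libraries, and its part in the shift was not tested.

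**Figure D4:**
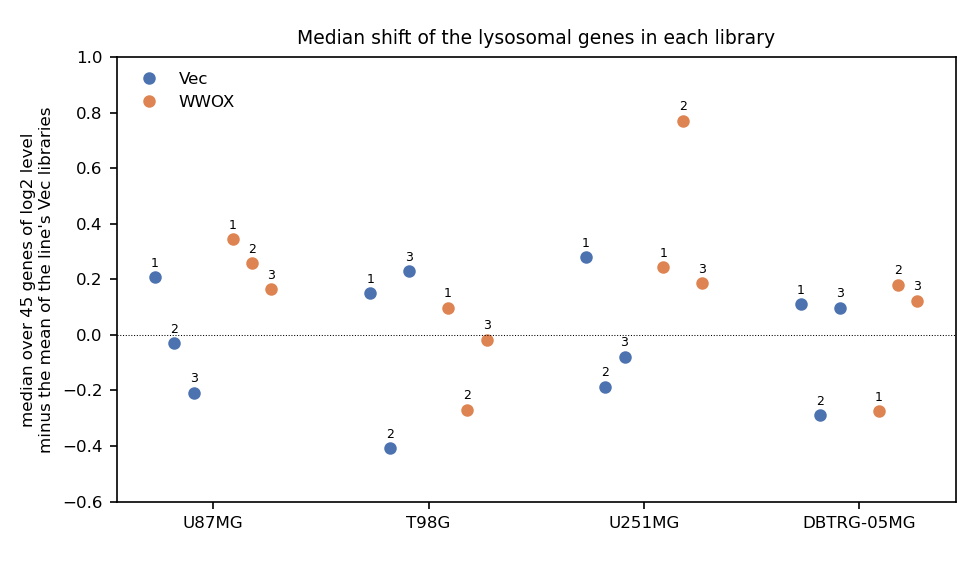
Each point is 1 library, numbered by replicate, and shows the median over 45 genes of the scaled log2 level minus the mean of its line's “Vec” libraries. In U251MG the “WWOX” libraries stand at 0.24, 0.77 and 0.19, and control 1 stands at 0.28.

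Complete separation of 3 libraries from 3, after scaling, was seen for 12 of the 45 genes (26.7%) in U87MG, against 17.5% of all genes, and for 10 (22.2%) in DBTRG-05MG, against 19.7%. It was seen for 5 (11.1%) in T98G, against 16.2% of all genes, and for 5 (11.1%) in U251MG, against 10.4%. In U87MG 9 of the 12 were higher in “WWOX” (MCOLN1, CTSZ, CTSH, MAN2B1, MANBA, CTSL, GALNS, TPP1 and FUCA1) and 3 lower (FUCA2, PPT1 and CTSO). Of all genes, 7.74% were higher and 9.73% lower in U87MG in this way. All 5 in T98G were higher (7% of all genes higher, 9.21% lower), as were all 5 in U251MG (5.43% and 5.01%). In DBTRG-05MG 4 were higher and 6 lower (9.46% and 10.3% of all genes).

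Much larger differences separated the lines themselves. Among the 4 “Vec” variants, 34 of the 45 genes (75.6%) passed the F-test between lines, against 66.9% of all genes. Each control was then set against the mean of the other 3, and these 4 contrasts share libraries. In U87MG 7 genes were higher (19.9% of all genes) and 14 lower (25.2%), and in T98G 13 were higher (20.1%) and 6 lower (20.4%). In U251MG 13 were higher (16.5%) and 12 lower (18.4%), and in DBTRG-05MG 10 were higher (22.7%) and 9 lower (19.9%). The differences below are on the log2(CPM + 0.5) scale, which understates those of a gene near 0.

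Of the genes above 0 in every control mean, which leaves out GALC, the 3 with the highest ratio between control means were the cathepsins CTSK, CTSZ and CTSH. Their lowest control means, at most 0.216 CPM, were near the floor, so the ratios are uncertain. The cathepsins CTSA, CTSB and CTSL varied less than GAA, FUCA1 or LAMP2. CTSK, cathepsin K, the collagenase of osteoclasts, was at 271, 204 and 144 CPM in U87MG “Vec” and at 322, 301 and 249 CPM in U87MG “WWOX”. It passed the filter through U87MG alone, since in the libraries of the other lines it did not exceed 4 tags, and the U87MG control differed from the mean of the other controls by 8.49 (SE 0.211, adjusted p = 5.12e-18). The reverse was seen for CTSZ, with 3, 3 and 1 tags in U87MG “Vec”, 53.5, 36.0 and 53.7 CPM in T98G “Vec”, 40.1, 21.3 and 20.2 CPM in U251MG “Vec” and 412, 157 and 300 CPM in DBTRG-05MG “Vec”. U87MG differed from the others by −6.65 (SE 0.344, adjusted p = 3.56e-13) and DBTRG-05MG by 4.70 (SE 0.344, adjusted p = 1.99e-10). With so few tags these fitted differences depend on the pseudocount and are no bounds, that of CTSK running from 7.62 to 11.1 and that of CTSZ in U87MG from −8.57 to −5.87 over the alternatives.

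CTSH, the aminopeptidase cathepsin H, had 3, 2 and 4 tags in U87MG “Vec”, 43.5, 31.5 and 44.5 CPM in T98G, 147, 39.0 and 63.2 CPM in U251MG and 6.22, 2.19 and 2.37 CPM in DBTRG-05MG. U87MG lay lowest (difference −4.90, SE 0.365, adjusted p = 1.76e-10) and U251MG highest (3.85, SE 0.365, adjusted p = 1.73e-08), with T98G overlapping the latter. CTSS was at 25.99, 25.2 and 29.9 CPM in U87MG, 27.7, 14.97 and 18.8 CPM in T98G, 12.8, 7.53 and 16.9 CPM in DBTRG-05MG and 2.51, 3.899 and 2.14 CPM in U251MG. U87MG differed from the others by 1.68 (SE 0.304, adjusted p = 9.11e-05) and U251MG by −2.62 (SE 0.304, adjusted p = 3.48e-07). Beside the high CTSK and CTSS of U87MG, the 8 macrophage and microglia markers summed to 144 to 247 CPM in its controls, nearly all from CD74, and to at most 4.19 CPM in the other controls. Of the 8, PTPRC, AIF1 and TYROBP were at 0 in all 3 U87MG controls, and CD68, CD14 and ITGAM averaged 0.611, 0.141 and 0.0237 CPM there. In T98G “Vec”, whose CTSS overlapped that of U87MG, CD74 averaged 1.55 CPM. Whether CD74 and CSF1R bear on these cathepsins was not tested.

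CTSC, cathepsin C, which activates serine proteases of granules, was at 240, 133 and 136 CPM in U251MG “Vec” and at 34.2 to 88.4 CPM in the other 9 controls. The groups did not overlap, and the difference was 1.52 (SE 0.313, adjusted p = 0.000526). LAMP2 was also highest in U251MG, at 431, 489 and 352 CPM in U251MG against 75.3 to 211 CPM elsewhere (difference 1.82, SE 0.306, adjusted p = 5.61e-05). The other large membrane glycoprotein, LAMP1, varied much less, from 277 to 564 CPM over the 12 controls, and did not pass the F-test between lines (adjusted p = 0.0916), although U251MG taken alone lay below the others (difference −0.55, adjusted p = 0.0391).

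**Figure D5:**
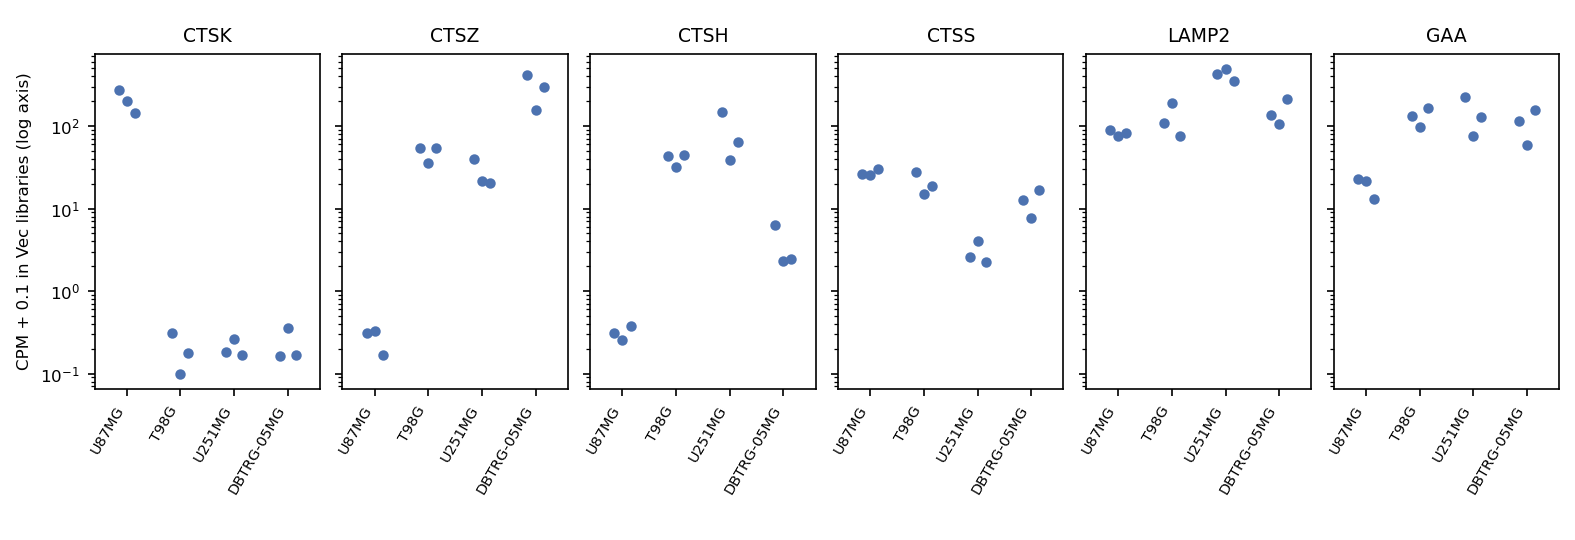
Points give CPM plus 0.1, on a log axis, of 6 genes in the 3 “Vec” libraries of each line. CTSK is high in U87MG alone, CTSZ and CTSH are lowest in U87MG, CTSS is lowest and LAMP2 highest in U251MG, and GAA is lowest in U87MG.

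Among the glycosidases, GAA was at 22.8, 21.4 and 12.8 CPM in U87MG “Vec” and at 59.3 to 227 CPM in the other 9 controls (difference −2.54, SE 0.366, adjusted p = 5.15e-06). FUCA1 was at 84.1, 40.8 and 92.1 CPM in DBTRG-05MG “Vec”, whose lowest library overlapped those of T98G, and at 6.66 to 45.7 CPM elsewhere (difference 1.48, SE 0.245, adjusted p = 3.93e-05). GALC differed in all 4 contrasts, by 1.36 for DBTRG-05MG, 1.17 for U87MG, −1.23 for T98G and −1.30 for U251MG (adjusted p at most 0.000134), but at levels of 1.84 CPM or less in every control, and the call in T98G was lost with edgeR (adjusted p = 0.996). Among the sulfatases, ARSA, the arylsulfatase of myelin sulfatide, was at 64.3, 30.7 and 71.1 CPM in T98G “Vec”, of which the lowest overlapped DBTRG-05MG, and at 9.12 to 34.5 CPM elsewhere (difference 1.596, SE 0.350, adjusted p = 0.000849). IDS, the iduronate sulfatase, was lowest in T98G, at 25.9, 25.4 and 22.7 CPM against 51.0 to 125 CPM (difference −1.41, SE 0.232, adjusted p = 3.54e-05), and 75.9% of its exon bases are shared. GALNS was lowest in DBTRG-05MG, at 37.4, 24.98 and 38.9 CPM against 58.7 to 129 CPM (difference −1.55, SE 0.268, adjusted p = 6.62e-05). TFEB was at 1.56, 3.48 and 2.95 CPM in U87MG “Vec” and at 10.54, 7.24 and 9.24 CPM in U251MG “Vec”, and passed the F-test between lines (adjusted p = 0.00905).

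By role, the F-test between controls called 11 of 13 proteases, 10 of 12 glycosidases, 4 of 5 sulfatases and sulfamidases, 5 of 7 lipid enzymes and activators, 2 of 5 membrane proteins (LAMP2 and SCARB2), 1 of 2 sorting receptors (M6PR) and TFEB, beside 66.9% of all genes. The 11 not called were ARSB, CD63, IDUA, IGF2R, LAMP1, LGMN, MCOLN1, NAGLU, NPC2, SMPD1 and TPP1. Among the called genes not yet described, PSAP averaged 2818 CPM in U251MG and 807 CPM in T98G, CTSF, cathepsin F, 234 CPM in T98G and 39.1 CPM in U87MG, and GUSB, the beta-glucuronidase, 162 CPM in DBTRG-05MG and 35.4 CPM in U87MG. The ratio of the highest to the lowest control mean was 1.22 for ARSB, 1.35 for SMPD1 and 1.39 for NAGLU, the 3 lowest of the 45 genes above 0 in every control mean.

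Other genes of the lysosome and its control were read from lists of their own, whose counts between controls stand beside the same 66.9% of all genes. Their counts of “WWOX” against “Vec” stand beside 3.2% of all genes in U87MG and 1.14% in T98G. The all-gene shares were 0.316% in U251MG, 1.02% in DBTRG-05MG and 1.78% in the mean of the lines. In lists of 3 to 16 genes, 1 call is no result about the list. Of 14 subunits of the proton pump V-ATPase tested, 0 passed in any line with limma, edgeR, limma-voom or DESeq2 (3 had an unadjusted p under 0.05 in T98G and 1 in U251MG), while 7 passed the F-test between controls, ATP6V1D (adjusted p = 0.000101) and ATP6V1E1 (0.00110) with the smallest values. Of 16 other lysosomal proteins tested, 1 passed in U87MG. It was CTSV, a close relative of CTSL, at 0.0468 CPM on average in “Vec” and 4.08 CPM in “WWOX” (log2FC 3.08, adjusted p = 3.06e-07). It passed the filter through 1 library of U87MG “WWOX”, the group where it is high. It also passed in the mean of the lines (limma log2FC 0.81, adjusted p = 0.00423), which includes U87MG and is no separate support. Its “Vec” and “WWOX” means were 1.87 and 1.41 CPM in T98G and 3.37 and 2.77 CPM in U251MG. In DBTRG-05MG they were 1.13 and 2.36 CPM. Tags of near copies such as CTSV and CTSL can be split between the pair, so the values of CTSV are uncertain. Between controls 10 of the 16 passed, with SORT1, a sorting receptor at 10.1 CPM in U87MG and 96.1 CPM in U251MG, having the smallest adjusted p (3.36e-08). Of 13 genes of mTORC1 and TFEB control tested, RRAGA, a Rag GTPase, fell in U87MG from 183 to 92.5 CPM (log2FC −1.10, adjusted p = 0.0159), and FNIP2 rose in the mean of the lines (0.57, adjusted p = 0.00738). RRAGD, with 4.30 CPM in T98G and 46.5 CPM in DBTRG-05MG, led the 7 that passed between controls (adjusted p = 3.20e-07). Of 12 autophagy genes tested, ATG7 fell in U87MG from 78.9 to 43.0 CPM (log2FC −0.94, adjusted p = 0.0458, not called by edgeR), and 7 passed between controls, led by GABARAPL1 (adjusted p = 4.96e-06). Of 3 cystatins, the inhibitors of cysteine cathepsins, CST7 fell in T98G from 19.1 to 3.63 CPM (log2FC −2.41, adjusted p = 9.56e-05), having passed the filter through T98G alone. CSTB, cystatin B, was at 4261 CPM in U87MG “Vec” and between 482 and 1147 CPM in the other controls (U87MG against the others, adjusted p = 5.29e-11). The median log2FC of these 5 lists in U251MG was 0.05, 0.44, 0.11, 0.11 and 0.26, against 0.47 for the 45 genes.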

How the data were processed

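The authors mapped CAGE tags to hg38 with STAR and deposited CPM (tags scaled to a common library total) per gene for 24 libraries, 3 in each of 8 groups; per the labels they also used SAMtools and limma 3.42. How tags in overlapping genes were counted is not given in the sources used here. Values came out as whole tags (100% within 0.001), and totals of 10756072 to 16953689 tags set the precision, with a floor of 3 tags covering counting error only. CPM was scaled by trimmed mean of M-values, log2-transformed after adding 0.5 and tested with limma 3.58.1 (R 4.3.3, trend, two-sided) in 1 fit of 8 groups, keeping genes that reached 5 CPM in 1 library or more, with Benjamini-Hochberg adjustment over 12327 genes. The p-values measure the spread between libraries within a group, in 1 estimate per gene shared by all 8 groups and so by all lines. For GALC and CTSK that estimate includes groups at or near 0 tags. Alternatives included edgeR 4.0.16, DESeq2 1.42.0 and limma-voom on the recovered tags. Positions are from the GENCODE annotation of GRCh38 and promoter sequences from RefSeq (GRCh38.p14). The procedure was tested on simulated data.

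The genes and lists were chosen with earlier results of these data known. By rule, the genes named are those past the threshold in a WWOX contrast or the F-test of the WWOX effect (with every library), the 3 called with the largest positive and the 3 with the largest negative difference of each control, the 3 highest and 3 lowest levels and, of other lists, the 2 with the smallest adjusted p in the contrast with most calls. LGMN, MANBA, LIPA, IGF2R and the other genes named outside the rule were chosen after their values were seen. Endothelial markers (PECAM1, VWF, CDH5, KDR) summed to at most 15.4 CPM in any library, and CDH5 was higher in U251MG “WWOX”. Replicates of a group differed beyond sampling noise, and none was counted as a repeat of another.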

Additional observations from a re-analysis of the deposited data

Results flagged for a closer look

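FUCA2 and GALC passed the limma F-test of the WWOX effect between the 4 lines, with adjusted p of 2.11e-05 and 0.00233. GALC was tested only because of its level in DBTRG-05MG “WWOX”, and its adjusted p was 0.287 with edgeR, 0.0643 with limma-voom and 0.204 with DESeq2. For 5 of 45 genes (11.1%), beside 6.17% of all genes, all 3 WWOX libraries lay on one side of the controls in one line and on the other side in another, after scaling. FUCA2 had log2FC of −1.62 in U87MG, 0.28 in U251MG and 1.08 in DBTRG-05MG. PPT1 had −0.42 in U87MG, 0.25 in T98G and 0.41 in DBTRG-05MG. CTSB had 0.53 in U251MG and −0.42 in DBTRG-05MG, HEXA had 0.75 in T98G and −0.31 in DBTRG-05MG, and GLA, the alpha-galactosidase deficient in Fabry disease, had 0.33 in T98G and −0.54 in DBTRG-05MG. In these pairs of lines the difference was not tested by itself. Over all 4 lines, the F-test did not pass for CTSB (adjusted p = 0.172), HEXA (0.212), GLA (0.666) or PPT1 (0.152).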

How the results depend on the processing

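The count of lysosomal genes past the threshold in U87MG was 2, and 1 with CPM as deposited (FUCA2) or a separate model for each line (CTSH, with FUCA2 and CTSO both lost). Over the 11 alternatives the count in U87MG ran from 1 to 3. It was 0 in U251MG, and 1 (LGMN) with DESeq2. In DBTRG-05MG it was 2, and 1 where a mean of at least 5 CPM was required, which drops GALC, or with a separate model. In the mean of the lines it was 1, and 0 with a pseudocount of 0.1, a mean of at least 5 CPM, a replicate block, edgeR, limma-voom or DESeq2. In the F-test of the WWOX effect it was 2, and 1 with a mean of at least 5 CPM or edgeR, and 5 with DESeq2 (CTSB, CTSO, FUCA2, LGMN and PPT1). The cause was not tested. Leaving out 1 library at a time gave 1 to 3 in U87MG (1 without “Vec” or “WWOX” replicate 2, and 3, with CTSZ, without the library labelled U251MG “WWOX” replicate 2), 0 to 1 in U251MG (LGMN without the library labelled “WWOX” replicate 2, HEXA without replicate 3), 1 to 2 in DBTRG-05MG (1, GALC, without “Vec” replicate 3, “WWOX” replicate 1 or “WWOX” replicate 3), 0 to 1 in the mean and 2 to 5 in the F-test (5 without T98G “Vec” replicate 2: CTSB, CTSO, FUCA2, GALC and MANBA). For the DBTRG-05MG control against the others it gave 11 to 20, with 12 without replicate 1 and 11 without replicate 3, against 19. In T98G it was 0 throughout, and the F-test between controls gave 31 to 35 against 34. No called value changed sign under these alternatives. Over all genes, the count past the threshold for U87MG, T98G, U251MG and DBTRG-05MG was 395, 140, 39 and 126, and 213, 0, 3 and 38 with separate models, 618, 271, 114 and 395 with no filter, 198, 74, 14 and 51 with a mean of at least 5 CPM, 328, 113, 14 and 49 with edgeR and 483, 273, 162 and 129 with DESeq2.

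Same-numbered libraries did not deviate together: over the 12 pairs of “Vec” and “WWOX” libraries of a line with the same number, the correlation of their deviations from the group means ran from −0.546 to 0.510, with 4 over 0.1. For 3 of the 12 “Vec” libraries the best match was the same number. With the replicate block the counts in U87MG, T98G, U251MG and DBTRG-05MG were 2, 0, 0 and 2. GALC and, outside U87MG, CTSK rest on few tags, and GLB1 had 4 to 40 tags in a library.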
